A study of Bos taurus and Bos grunniens x Bos taurus and Bos grunniens with 18 samples.

Results

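Circular RNAs (circRNAs) that were read in every one of 9 testis libraries were described here. The circRNA table was searched for rows with at least 2 reads in each library, and 1497 of its 5730 circRNAs met this rule. The members were chosen by their read counts, so their presence and abundance are given as a description. It did not use any difference between the groups, although a circRNA lost altogether from a group could not enter. Each circRNA is named by the number that the table gives it. Its position, strand, host gene and sequence are not analysed here.

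The libraries came from testes of 3 cattle-yaks (titled Dzo, Bos grunniens x Bos taurus), 3 yaks (Bos grunniens) and 3 cattle (Bos taurus). All were 4 years old, came from 1 cooperative and were castrated for the study, so replicates are separate animals. RNA was depleted of ribosomal RNA and sequenced as paired directional libraries. The labels name no treatment and do not say which species was the dam of the hybrids. The submitters' processing notes name 1 genome build, UMD3.1 of cattle, for all animals. A difference between species in RNA and one in how reads matched that build cannot be told apart.

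A circRNA is a closed loop that forms when the spliceosome joins the end of an exon back to the start of the same or an earlier exon. It has no free ends for exonucleases to attack and usually outlives the linear mRNA of its gene. Testis is among the tissues known for many circRNAs, and much of that RNA belongs to germ cells. Male cattle-yaks are sterile, with spermatogenesis that stops before sperm form, while yak and cattle bulls are fertile.

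circRNAs found in all 9 libraries were the largest class of the table when circRNAs were sorted by the number of libraries that held them. They made up 26.1% of the table, against 15.1% found in 8 libraries and 7.07% found in 3, the fewest that occurred. Each row of the table was read 2 times or more throughout at least 1 group, and no cell held a single read, so the table had been filtered before deposit. The 1497 circRNAs carried 57.95, 58.45 and 56.62% of the circRNA reads in cattle-yak libraries 1 to 3, 61.66, 62.96 and 62.58% in the yak libraries, and 58.98, 61.80 and 57.32% in the cattle libraries. Means were 57.7% ± 0.944 in cattle-yak, 62.4% ± 0.671 in yak and 59.4% ± 2.27 in cattle (SD, n = 3 each). The cattle-yak shares lay below all yak shares and overlapped the cattle shares. Exact (Clopper-Pearson) 95% intervals, which cover counting error only, were narrow: cattle-yak replicate 3, the lowest share, had 56.24 to 57.00%. Depth was 44469 to 65174 circRNA reads per library. The median circRNA of the set had 11 to 13 reads in cattle-yak libraries, 9 to 10 in yak libraries and 10 in each cattle library, so most members were counted from few reads.

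**Figure D1:**
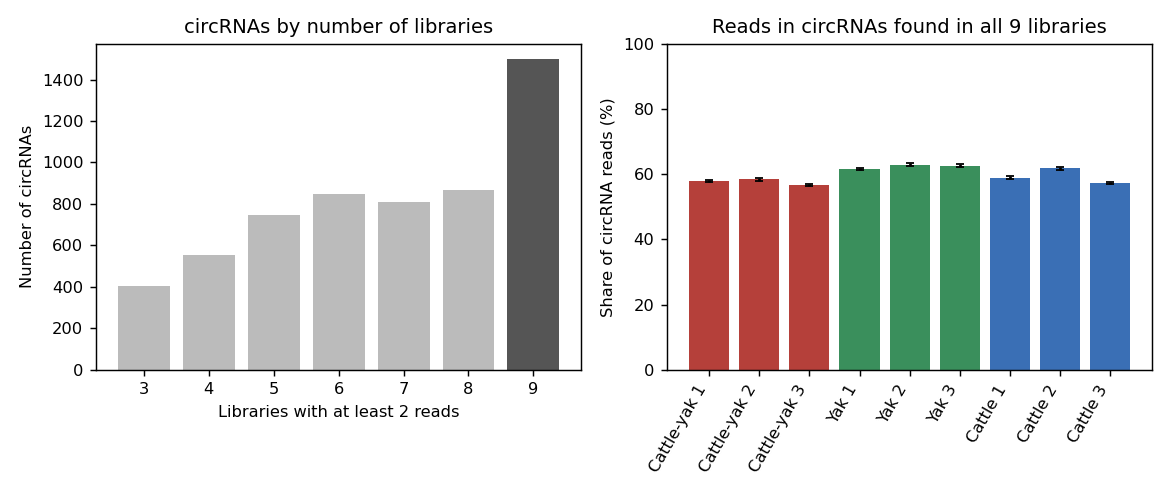
Left, the number of circRNAs (bars) against the number of libraries with at least 2 reads, with the 1497 found in all 9 in dark grey. Right, the share of each library's circRNA reads that these 1497 carried, in percent, with 95% Clopper-Pearson intervals; the lowest library is cattle-yak 3 at 56.62%, and the 3 yak libraries lie between 61.66 and 62.96%.

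Most circRNAs on either side of the edge of the rule had few reads. Of the members, 377 had exactly 2 reads in their lowest library, and these averaged a median of 6.44 reads per library. A further 867 circRNAs missed the rule by 1 library, and their median was 5.67 reads. Some of these were abundant elsewhere. novel_circ_0030640 had 758, 639 and 840 reads in cattle-yak, 204, 205 and 217 in yak, and 103, 0 and 92 in cattle. novel_circ_0002222 had 338, 270 and 369 reads in cattle-yak, 263, 225 and 212 in yak, and 205, 0 and 364 in cattle. Both were chosen after their values were seen, and in both the library listed at 0 was cattle replicate 2. That library was the missing one for 169 of the 867 circRNAs, against 57 to 106 for each of the other libraries. In 32 of the 867, the other libraries of the same group had at least 20 reads each, and 18 of these 32 were at 0 in cattle replicate 2. Without cattle replicate 2 the rule would take 1666 circRNAs. The cause of these zeros was not tested.

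Reads were concentrated in few circRNAs. The 12 most abundant of the 1497 carried 12.99% of the members' reads, and the 100 most abundant carried 37.3%. Of the 129 circRNAs in the whole table with a mean of at least 50 reads, 112 were members, as were 881 of the 1210 with a mean of at least 10. novel_circ_0014170 and novel_circ_0014169, which carry adjacent numbers, led the set. novel_circ_0014170 had 447, 803 and 388 reads in cattle-yak, 952, 1001 and 1070 in yak, and 981, 903 and 686 in cattle. After scaling for library composition, its 3 cattle-yak values lay below all 6 parent values. novel_circ_0014169 had 530, 950 and 434 reads in cattle-yak, 1002, 1042 and 1207 in yak, and 630, 550 and 678 in cattle. Here the cattle-yak and cattle libraries overlapped, while the yak libraries were the highest. Against yak both were lower in cattle-yak, by log2 −1.27 and −1.15 (edgeR, adjusted p = 0.0202 and 0.0321). Neither was called against cattle (edgeR, adjusted p = 0.065 and 0.642). The call of novel_circ_0014170 was lost without cattle-yak replicate 1 or yak replicate 3 (edgeR, adjusted p = 0.0555 and 0.0541). That of novel_circ_0014169 was lost without cattle-yak replicate 1, yak replicate 2 or yak replicate 3 (edgeR, adjusted p = 0.0791, 0.0506 and 0.0881) and without the filter on low counts (adjusted p = 0.0585).

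The order of the leading circRNAs differed between the groups. novel_circ_0011498 ranked 2 of 1497 in cattle-yak, 14 in yak and 16 in cattle, with 478, 612 and 732 reads in cattle-yak, 194, 165 and 206 in yak, and 162, 174 and 211 in cattle. Every cattle-yak library lay above every parent library. It was higher in cattle-yak by log2 1.29 against yak and 1.41 against cattle (edgeR, adjusted p = 0.00752 and 0.00425). novel_circ_0008531 ranked 5 in cattle-yak, 58 in yak and 45 in cattle, with 463, 363 and 411 reads in cattle-yak, 62, 87 and 80 in yak, and 69, 108 and 112 in cattle. Its log2 changes were 2.06 and 1.81 (edgeR, adjusted p = 0.00132 and 0.00231). In the opposite direction, novel_circ_0001036 ranked 749 in cattle-yak, 4 in yak and 5 in cattle. It had 20, 8 and 7 reads in cattle-yak, against 518, 270 and 429 in yak and 273, 258 and 566 in cattle, so a leading circRNA of both parents was among the middle ranks in the hybrid. novel_circ_0029129 led in cattle only, with rank 228 in cattle-yak, 146 in yak and 3 in cattle. It had 41, 37 and 20 reads in cattle-yak, 59, 14 and 48 in yak, and 768, 249 and 793 in cattle, and its cattle libraries did not overlap the others. Among the 12, novel_circ_0010778 had 140, 141 and 115 reads in cattle-yak, 332, 230 and 300 in yak, and 192, 86 and 87 in cattle, with yak the highest. It was lower in cattle-yak than in yak by log2 −1.48 (edgeR, adjusted p = 0.0114). It was also higher in yak than in cattle by log2 1.32 (edgeR, adjusted p = 0.0369), a call lost when cattle replicate 2 or 3 or any 1 yak library was left out (adjusted p = 0.06 to 0.134).

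**Figure D2:**
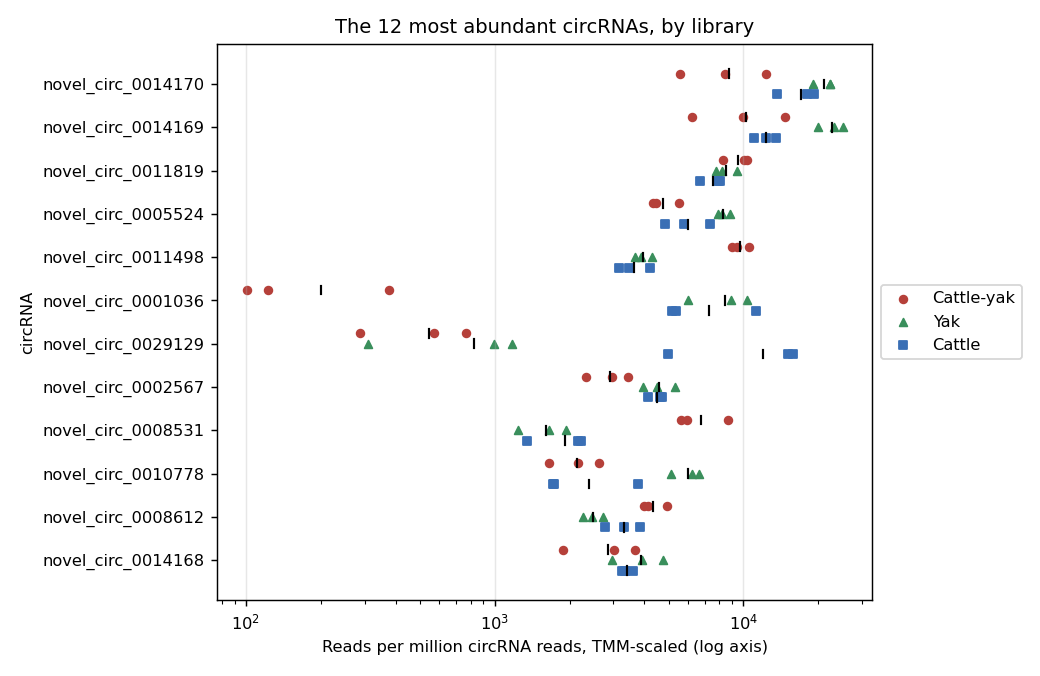
CPM (counts scaled by library total and TMM factor, log axis) of the 12 most abundant circRNAs in each library, with a black tick at each group mean. novel_circ_0001036 and novel_circ_0029129 stand out by their spread, with cattle-yak means of 199.9 and 542.6, yak means of 8413 and 828.3, and cattle means of 7259 and 11941.

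Other leading circRNAs passed the test in none of the 3 comparisons. novel_circ_0011819, the third in abundance, varied least among the 112 with a mean of at least 50 reads. It had 440, 654 and 717 reads in cattle-yak, 412, 425 and 375 in yak, and 341, 403 and 395 in cattle. In scaled CPM, it averaged 9550 ± 1116 CPM in cattle-yak, 8482 ± 859 CPM in yak and 7533 ± 740 CPM in cattle (SD, n = 3 each), with a coefficient of variation of 0.139 over the 9 libraries. Its cattle-yak libraries overlapped the yak libraries and lay above every cattle library. By DESeq2 the log2 difference was 0.18 ± 0.213 (SE) between cattle-yak and yak and 0.38 ± 0.214 between cattle-yak and cattle. The next by low variation were novel_circ_0004892, novel_circ_0014529, novel_circ_0020350 and novel_circ_0000479, with coefficients of 0.15 to 0.188. novel_circ_0004892 had 149, 172 and 158 reads in cattle-yak, 133, 155 and 118 in yak, and 169, 120 and 158 in cattle. None of these 5 was called in any of the 3 comparisons (edgeR, adjusted p = 0.301 to 0.956), which does not show that their levels were equal. novel_circ_0002567, novel_circ_0005524, novel_circ_0008612 and novel_circ_0014168, also among the 12 most abundant, were not called either (edgeR, adjusted p = 0.0585 to 0.972). Some of their libraries nevertheless stood apart after scaling. In novel_circ_0002567 the cattle-yak values lay below all 6 parent values, with 182, 192 and 162 reads in cattle-yak, 266, 177 and 217 in yak, and 236, 207 and 237 in cattle. In novel_circ_0008612 they lay above all 6, with 262, 258 and 288 reads in cattle-yak, 136, 102 and 119 in yak, and 195, 166 and 140 in cattle. novel_circ_0005524 was below every yak library, with 293, 290 and 301 reads in cattle-yak, 443, 369 and 379 in yak, and 246, 288 and 370 in cattle.

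The hybrid was then set against each parent over all members. Read counts were fitted over the whole table with edgeR's quasi-likelihood test, which took the 3730 circRNAs that reached 5 reads in 3 or more libraries. Of the 1497 members 1471 passed this filter, and the other 26 averaged at most 5 reads. Against cattle, 139 of the tested members were higher in cattle-yak and 194 lower at an adjusted p under 0.05. These are 9.45 and 13.2% of the members, beside 9.33 and 18.8% of all circRNAs tested. Against yak, 137 were higher and 202 lower, or 9.31 and 13.7%, beside 10.3 and 17.3% of all tested. The share called higher was near the background in both comparisons. The share called lower was below it in both. circRNAs at 0 in a library of any group are in the table but not in the set. Both comparisons use the same cattle-yak libraries. A fit without the filter, which holds all 1497, called 152 members higher and 198 lower against cattle, or 10.2 and 13.2%, beside 12 and 18.4% of the table. In that fit 136 were higher and 216 lower against yak, or 9.08 and 14.4%, beside 13 and 16.2%. With libraries scaled to their total alone, 193 members were higher and 162 lower against cattle, the one setting in which more were higher there. The same scaling gave 171 higher and 189 lower against yak. The count higher against cattle was 86 without cattle-yak replicate 3 and 86, 88 and 82 without cattle replicate 1, 2 or 3. The count higher against yak was 89 without cattle-yak replicate 3 and 77 without yak replicate 1.

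Fold changes of members were narrower than those of the whole table, as the rule requires. In the fit without the filter the lower and upper quartiles of the members were log2 −0.80 and 0.64 against yak and −0.77 and 0.64 against cattle. Over all 5730 circRNAs they were −1.28 and 1.34 against yak and −1.5 and 1.25 against cattle. The medians of the members were −0.05 against yak and −0.02 against cattle. More members fell far than rose far: 85 were below log2 −2 against yak and 33 above 2, and 83 and 17 against cattle. Over all circRNAs, 1087 were below and 995 above against yak, and 1198 and 830 against cattle. The rule asks a member for reads in every library of both parents, and there are more parent than cattle-yak libraries. Large rises from low parent levels and large falls may thus not be kept alike, so this split is not a result about the members. Calls were more frequent among members with more reads. Of 112 tested members with a mean of at least 50 reads, 55.4% were called between cattle-yak and yak and 45.5% between cattle-yak and cattle. Of 590 with a mean under 10 reads, 6.95% were called in each. Shares at these read levels were not counted over all circRNAs, so they cannot be read as a trait of the members.

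**Figure D3:**
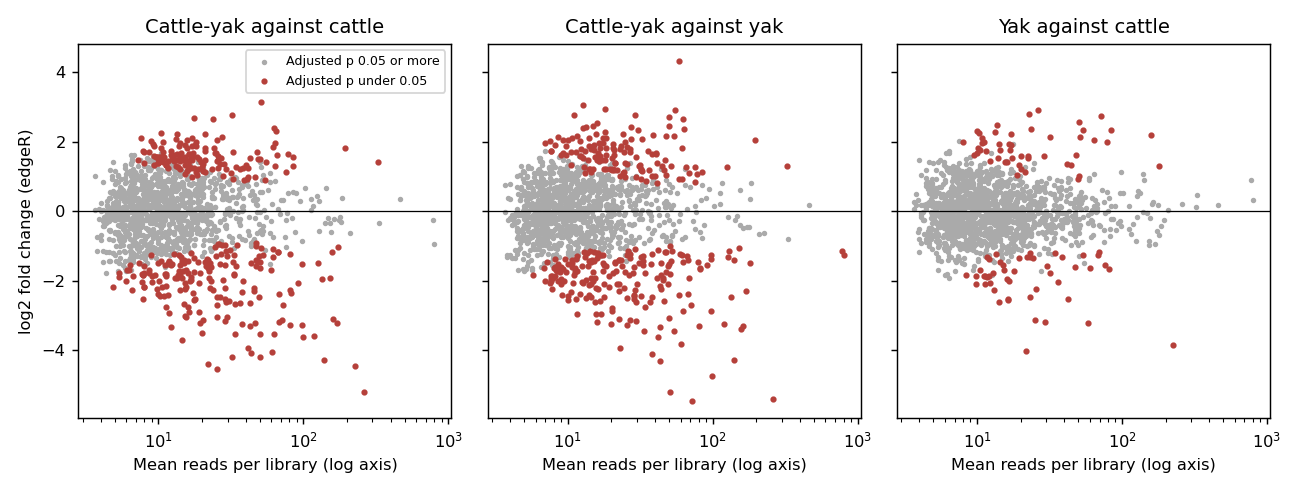
Log2 fold change by edgeR against mean reads per library (log axis) for the 1471 tested members, 1 point each, in the 3 comparisons, with red for an adjusted p under 0.05. Positive values are higher in the group named first in each panel title; calls are sparse below 10 reads, and the changes below −4 in the cattle-yak panels have few counterparts above 0.

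Cattle-yak libraries stood apart from both parents over the members. After scaling, all 3 cattle-yak values lay above all 6 parent values in 188 members and below them in 224. That is 12.6 and 15% of the 1497, beside 12.4 and 10.4% of the table. The share above was near that of the table. A circRNA without reads in a parent library cannot count as below, and one without reads in a cattle-yak library cannot count as above. Such circRNAs are in the table but not in the set, so the gap in the share below is not a result about the members. The first principal component of the members' log2 levels held 45.7% of the variance and placed the cattle-yak libraries at 25.1 to 33.4, the yak libraries at −19.6 to −10.8 and the cattle libraries at −14.6 to −11.8. The second, with 19.0%, parted yak libraries, at 14.1 to 17.2, from cattle libraries, at −17.7 to −14.8, with the hybrid between −0.58 and 2.04. Across members, 2 libraries correlated at 0.816 to 0.85 within a group. Between groups the correlation was 0.411 to 0.611 for cattle-yak with yak, 0.47 to 0.591 for cattle-yak with cattle, and 0.696 to 0.733 for yak with cattle. circRNAs are not independent replicates, and these correlations are a description.

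The circRNAs that fell furthest in cattle-yak were at a few reads per library there, where the rule sets the lowest value that a member can have. novel_circ_0001036, given above, had log2 changes of −5.41 against yak and −5.20 against cattle (edgeR, adjusted p = 0.000145 and 7.35e-05). By DESeq2 they were −5.42 ± 0.583 and −5.18 ± 0.583 (SE). novel_circ_0007302 had 20, 12 and 6 reads in cattle-yak, 238, 188 and 165 in yak, and 183, 209 and 237 in cattle. It ranked 12 in each parent and 686 in the hybrid, with log2 changes of −4.27 and −4.28 (edgeR, adjusted p = 0.000147 and 7.35e-05). novel_circ_0020265 had 3, 5 and 2 reads in cattle-yak, 101, 80 and 111 in yak, and 52, 52 and 49 in cattle. Its log2 changes were −5.19 against yak and −4.18 against cattle (edgeR, adjusted p = 6.79e-06 and 4.41e-05). It was also higher in yak than in cattle by log2 1.01 (edgeR, adjusted p = 0.0384), a call lost without cattle-yak replicate 1, any 1 cattle library or any 1 yak library (adjusted p = 0.052 to 0.13). In these 3 circRNAs every cattle-yak library was far below every parent library.

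Further members with the same pattern ranked between 13 and 105 in the parents and between 926 and 1404 in the hybrid. novel_circ_0024100 had 2, 4 and 7 reads in cattle-yak, 69, 66 and 65 in yak, and 76, 55 and 48 in cattle. novel_circ_0003636 had 9, 9 and 3 reads in cattle-yak, 88, 51 and 96 in yak, and 90, 84 and 118 in cattle. novel_circ_0008179 had 15, 7 and 5 reads in cattle-yak, 240, 198 and 145 in yak, and 151, 46 and 85 in cattle. The cattle animals differed among themselves here, but all of them stood above all hybrid libraries. novel_circ_0013836 had 7, 3 and 6 reads in cattle-yak, 68, 35 and 53 in yak, and 85, 47 and 72 in cattle. novel_circ_0018356 had 5, 16 and 2 reads in cattle-yak, 81, 56 and 42 in yak, and 69, 67 and 50 in cattle. The log2 changes of these 5 were −4.74 to −3.32 against yak (edgeR, adjusted p = 5.44e-05 to 0.000747) and −4.06 to −3.30 against cattle (adjusted p = 4.41e-05 to 0.000705). None of these 8 members lost a call in any other setting for the comparisons of cattle-yak with its parents.

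The circRNAs that rose furthest in cattle-yak changed by less. The rule asks a member for reads in every parent library, so a circRNA that rose from no reads there could not enter. novel_circ_0008524 had 200, 121 and 117 reads in cattle-yak, 9, 20 and 25 in yak, and 16, 34 and 19 in cattle, and ranked 18, 361 and 313 in these groups. It rose by log2 2.67 against yak and 2.41 against cattle (edgeR, adjusted p = 0.00146 and 0.00217), with 2.69 ± 0.547 and 2.46 ± 0.539 (SE) by DESeq2. novel_circ_0020987 had 135, 146 and 141 reads in cattle-yak, 11, 24 and 27 in yak, and 27, 37 and 23 in cattle. Its log2 changes were 2.37 and 1.98 (edgeR, adjusted p = 0.000695 and 0.00174). novel_circ_0027584 had 56, 60 and 70 reads in cattle-yak, 6, 16 and 4 in yak, and 8, 13 and 13 in cattle. The cattle-yak libraries of these 3 circRNAs were each above every parent library.

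The remaining named members that rose had at most 76 reads in any library. novel_circ_0023980 had 39, 51 and 74 reads in cattle-yak, 11, 15 and 8 in yak, and 12, 9 and 10 in cattle. novel_circ_0016385 had 31, 51 and 76 reads in cattle-yak, 10, 6 and 9 in yak, and 11, 16 and 8 in cattle. novel_circ_0016051 had 35, 36 and 53 reads in cattle-yak, 4 in each yak library, and 9, 12 and 6 in cattle. Its rise was larger against yak (log2 2.94, edgeR, adjusted p = 0.00031) than against cattle (log2 1.87, adjusted p = 0.00205). Its yak and cattle libraries did not overlap after scaling, but the difference between the parents was not called (edgeR, adjusted p = 0.159). novel_circ_0006178 had 21, 19 and 30 reads in cattle-yak, 5, 4 and 3 in yak, and 2, 5 and 7 in cattle. novel_circ_0026657 had 11, 19 and 20 reads in cattle-yak, 2, 5 and 2 in yak, and 3 in each cattle library. It rose by log2 2.02 against yak (edgeR, adjusted p = 0.0137), a call lost without yak replicate 1 (adjusted p = 0.0575).

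**Figure D4:**
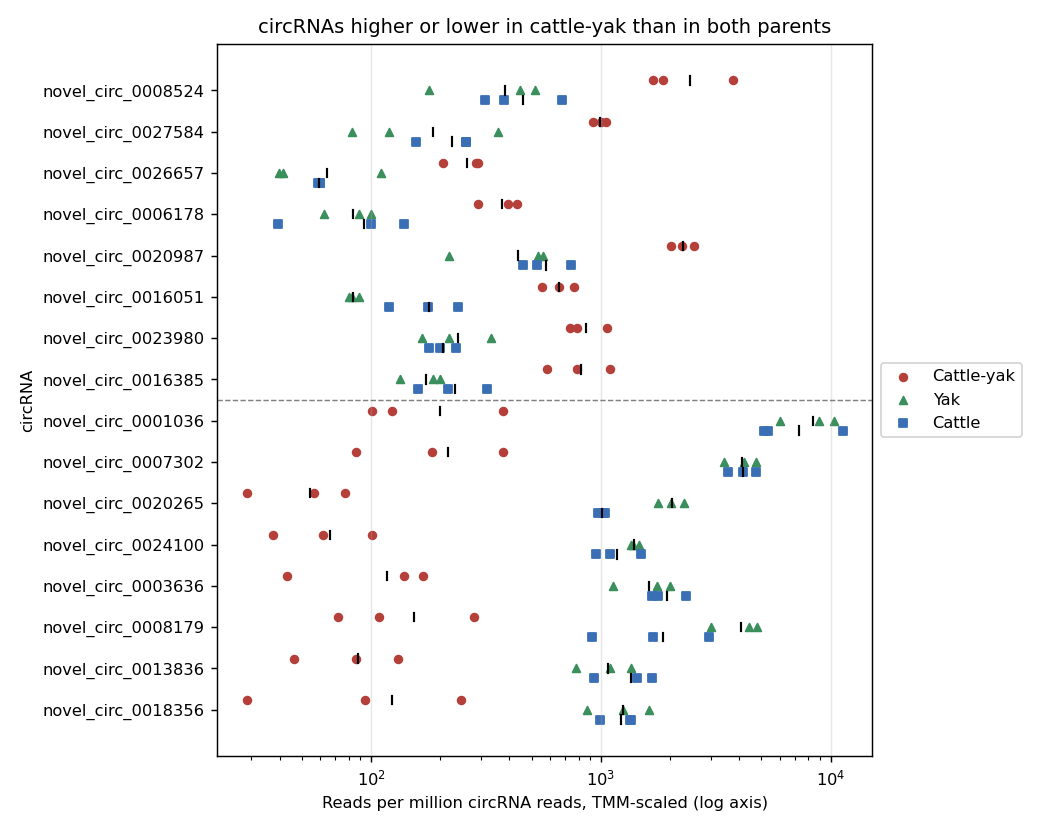
TMM-scaled CPM (log axis) in each library for the 8 members that rose furthest (above the dashed line) and the 8 that fell furthest (below it) in cattle-yak against both parents, with a black tick at each group mean. The cattle-yak points lie to the right of all parent points above the line and to the left of them below it, and the parents overlap in most rows.

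mRNA of cell type marker lists in the same libraries differed between the groups as well. Levels in FPKM, which are scaled for transcript length and library size, were tested with limma on log2(FPKM + 1) for 14091 genes. The median log2 difference over all genes tested was 0.54 between cattle-yak and yak and 0.50 between cattle-yak and cattle, and changes read against zero carry that shift. All 12 testis identity genes found in the table reached 1 FPKM in at least 1 library, while 13 of 15 identity genes of other tissues did not. All 28 spermatid nucleus and shape genes were lower in cattle-yak than in each parent, beside 30.7% of all genes against yak and 30.0% against cattle. Their summed level was 163 to 324 FPKM in cattle-yak, 23930 to 26860 in yak and 19380 to 30540 in cattle. AKAP4, a scaffold of the sperm tail sheath, ranged over 0.825 to 3.25 FPKM in cattle-yak, 210 to 238 in yak and 207 to 274 in cattle. Of 69 flagellum genes 68 were lower against each parent, as were 21 of 24 acrosome genes. Sertoli cell, Leydig cell and tubule wall lists moved the other way: all 24 Sertoli cell genes were higher against each parent, beside 55.3% of all genes against yak and 54.4% against cattle. Their summed level was 3853 to 4895 FPKM in cattle-yak, 869 to 1370 in yak and 911 to 1111 in cattle. Of 15 Leydig cell genes 14 were higher against each parent, as were 32 of 36 matrix, tubule wall and vessel genes against yak and 33 against cattle. Of 19 macrophage and leucocyte genes, 15 were higher and 3 lower against yak. Against cattle 9 were higher and 3 lower, a smaller share higher than the 54.4% of all genes.

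Lists of early germ cell genes did not move alike. Of all genes tested, 55.3% were higher and 30.7% lower against yak, and 54.4 and 30% against cattle. Of 16 spermatogonial genes 14 were higher and 2 lower against each parent, a larger share higher than that of all genes. Of 36 meiotic prophase genes 11 were higher and 12 lower against yak, and 10 and 12 against cattle. Their share higher was below that of all genes, and their share lower was near it. With median-ratio scaling 5 were higher and 19 lower in both. Without cattle-yak replicate 3, 16 were higher against cattle, and without cattle-yak replicate 2 or yak replicate 2, 7 were higher against yak. The summed level of the list was 1015 to 1569 FPKM in cattle-yak, 1413 to 1602 in yak and 1367 to 1504 in cattle, so the groups overlapped. Of 27 piRNA pathway genes 17 were lower and 8 higher against yak, and 16 and 6 against cattle. With median-ratio scaling 3 and 2 of them were higher. The shares of all genes called were not counted under median-ratio scaling or with a library left out. The counts of both lists in those settings therefore have no background beside them. Between yak and cattle 8.36% of all genes were higher in yak and 10.7% lower, and none of the 28 spermatid or 24 acrosome genes was called. In bulk tissue fewer cells of a type and less RNA per cell cannot be told apart. The part of cell composition in the circRNA differences was not tested.

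Proteins that bind RNA can favour or hinder back-splicing, so their mRNA was counted as well. Of 147 tested genes of helicases and RNA-binding proteins, 97 were higher and 25 lower in cattle-yak against yak, beside 55.3% higher and 30.7% lower of all genes. Against cattle 95 were higher and 24 lower, beside 54.4 and 30%. After median-ratio scaling of FPKM, the median over all genes tested was log2 −0.02 against yak and 0.01 against cattle. With that scaling 48 genes of the list were higher and 58 lower against yak, and 55 and 51 against cattle. The shares of all genes called under it were not counted, so these counts have no background beside them. QKI, which promotes back-splicing in human cells by binding introns on either side of an exon, averaged 108.6 ± 2.32 FPKM in cattle-yak, 70.4 ± 4.29 in yak and 75.8 ± 6.92 in cattle (SD, n = 3 each). Its log2 changes of 0.62 against yak and 0.52 against cattle (limma, adjusted p = 0.000152 and 0.000593) were near the median of all genes, 0.54 and 0.50. DHX9, a helicase that unwinds paired repeats and limits circRNAs in human cells, averaged 79.2 ± 1.39 FPKM in cattle-yak, 47.0 ± 2.42 in yak and 50.6 ± 2.69 in cattle (SD, n = 3 each). Their part in the circRNA levels was not tested.

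Yak and cattle, the parent species, differed in fewer of the members. Of the 1471 tested, 50 were higher and 49 lower in yak than in cattle by edgeR, or 3.4 and 3.33%, beside 4.85 and 7% of all circRNAs tested. The fit without the filter called 55 higher and 52 lower, or 3.67 and 3.47%, beside 5.78 and 8.31% of the table. Leaving out any 1 of the 6 parent libraries left 17 to 33 higher and 21 to 32 lower, the fewest higher without cattle replicate 3 and the fewest lower without yak replicate 2. All 3 yak values were above all 3 cattle values in 209 of the 1497 and below them in 211, or 14 and 14.1%, beside 14.9 and 16.9% of the table. Here too a circRNA without reads in a library cannot count as higher in the group of that library. Of the 50 called higher in yak, the mean of the cattle-yak libraries lay between the parent means in 29, below both in 16 and above both in 5. Of the 49 called lower in yak it lay between in 20, below both in 21 and above both in 8. These positions rest on group means alone and were not counted for circRNAs outside the set.

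The named members that were higher in yak took several levels in the hybrid. novel_circ_0016364 had 104, 96 and 82 reads in cattle-yak, 40, 54 and 54 in yak, and 12, 8 and 6 in cattle. The log2 change was 2.58 in yak against cattle (edgeR, adjusted p = 0.0011) and 3.14 in cattle-yak against cattle (adjusted p = 0.000109). Cattle-yak and yak overlapped in this circRNA and were not called apart (edgeR, adjusted p = 0.208). novel_circ_0021499 had 3, 6 and 7 reads in cattle-yak, 205, 178 and 163 in yak, and 21, 29 and 35 in cattle. Its log2 change was 2.75 between yak and cattle (edgeR, adjusted p = 0.000714). novel_circ_0026254 had 3, 7 and 4 reads in cattle-yak, 74, 47 and 46 in yak, and 8, 9 and 8 in cattle. Both were lower in every cattle-yak library than in every parent library after scaling. novel_circ_0008489 had 13, 25 and 20 reads in cattle-yak, 43, 57 and 57 in yak, and 9, 9 and 4 in cattle. novel_circ_0006989 had 10, 16 and 14 reads in cattle-yak, 26, 19 and 25 in yak, and 5, 3 and 5 in cattle, and its hybrid level lay between the parents. The calls that set this hybrid level apart from yak and from cattle were each lost in several other settings (edgeR or DESeq2, adjusted p = 0.0507 to 0.0601 against yak and 0.0606 to 0.11 against cattle).

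The named members that were lower in yak also took several levels in the hybrid. novel_circ_0016315 had 3, 3 and 4 reads in cattle-yak, 3, 5 and 2 in yak, and 47, 46 and 84 in cattle. Its log2 change was −4.02 between yak and cattle (edgeR, adjusted p = 0.000571) and −4.40 between cattle-yak and cattle (adjusted p = 4.41e-05), with cattle-yak and yak overlapping. novel_circ_0002504 had 3, 4 and 3 reads in cattle-yak, 5, 7 and 9 in yak, and 82, 77 and 37 in cattle. novel_circ_0029129, the third in abundance in cattle, had a log2 change of −3.84 in yak against cattle (edgeR, adjusted p = 0.00179) and −4.46 in cattle-yak against cattle (adjusted p = 0.000278). In the other named members the hybrid overlapped cattle. novel_circ_0016962 had 23, 34 and 66 reads in cattle-yak, 2, 6 and 5 in yak, and 29, 29 and 69 in cattle. It was higher by log2 2.78 in cattle-yak than in yak (edgeR, adjusted p = 0.00298) and was not called between cattle-yak and cattle (adjusted p = 0.538). novel_circ_0023359 had 150, 20 and 202 reads in cattle-yak, 5, 6 and 3 in yak, and 68, 39 and 34 in cattle. The hybrid animals differed 9.43-fold among themselves after scaling. Its call between yak and cattle was lost without cattle replicate 1 or any 1 yak library (edgeR, adjusted p = 0.0519 to 0.0702).

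**Figure D5:**
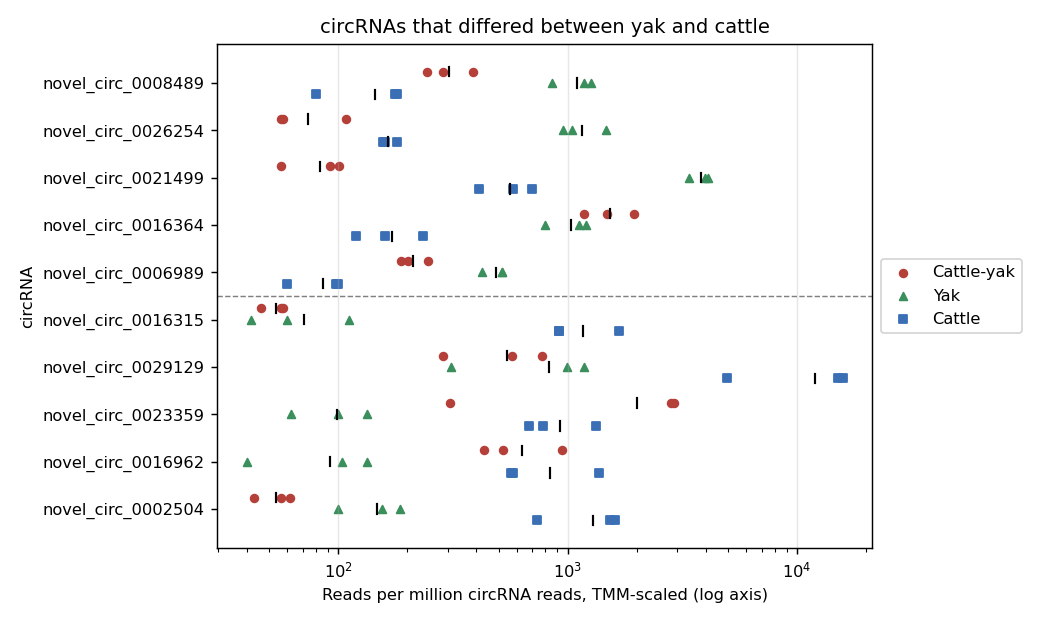
TMM-scaled CPM (log axis) in each library for the 5 members furthest higher (above the dashed line) and the 5 furthest lower (below it) in yak against cattle, with a black tick at each group mean. The cattle-yak points lie with yak in novel_circ_0016364, novel_circ_0016315 and novel_circ_0029129, with cattle in novel_circ_0016962, and below both parents in novel_circ_0021499.

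Animals of a group differed among themselves by no more than 2-fold in most abundant members. Among the 112 with a mean of at least 50 reads, the highest library of a group was above the lowest by a median of 1.461-fold in cattle-yak, 1.498-fold in yak and 1.492-fold in cattle. The ratio passed 2 in 26 members in cattle-yak, 18 in yak and 16 in cattle. It passed 5 in 1 member in cattle-yak, 1 in yak and 5 in cattle. The widest were chosen after their values were seen. novel_circ_0013191 had 43, 34 and 12 reads in cattle-yak, 249, 95 and 368 in yak, and 400, 216 and 33 in cattle, where the ratio was 11.9. novel_circ_0016741 had 116, 63 and 139 reads in cattle-yak, 2, 14 and 21 in yak, and 22, 24 and 50 in cattle. Its ratio in yak was 10.9. novel_circ_0012311 had 99, 87 and 109 reads in cattle-yak, 111, 149 and 126 in yak, and 6, 54 and 20 in cattle. Between animals, the median biological coefficient of variation that edgeR fitted was 0.254 for the tested members and 0.428 for the other circRNAs tested. The others have fewer reads and, by the rule, a 0 in at least 1 library, so this gap follows in part from the choice of members.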

How the data were processed

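RNA sequencing of testis from 9 animals was used. The 9 small RNA samples of the series are not analysed here. Per the file headers, the authors deposited a read count per circRNA and library, with no caller given in the sources used here, and TPM columns. The deposited TPM are each count's share of its library's table total on the TPM scale, with no length term. The authors' mRNA values are FPKM per transcript, and these were summed per gene. The submitters' processing notes list, without roles, the build UMD3.1 and the tools Bowtie, Cufflinks, StringTie (1.3.4), HISAT2 (2.0.5) and Trimmomatic. 3 unnamed columns of group means were not used.

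Counts were fitted with edgeR 4.0.16 (TMM, quasi-likelihood test, group term over 9 libraries) in R 4.3.3, two-sided, with Benjamini-Hochberg adjustment over 3730 circRNAs. FPKM were fitted with limma 3.58.1 on log2(FPKM + 1) for genes with at least 1 FPKM in at least 3 libraries. DESeq2 1.42.0 was an alternative. Scripts were tested on simulated data. Planned comparisons with host genes, exons and genomic spans could not be made from circRNA numbers alone, and host gene lists (known circRNA hosts, chromatin, ubiquitin, zinc finger, centrosome) and a housekeeping list were not used.

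Members and lists were chosen with earlier results of these data known. Named members were the 12 most abundant, the 8 highest and 8 lowest called against both parents without overlap (ranked by the smaller log2 change), the 5 and 5 between yak and cattle (each with at least 10 mean reads in the higher group), and the 5 least variable with at least 50 mean reads. Depth was 44469 to 65174 circRNA reads per library, and the depth behind FPKM is unknown. Alternatives were other scalings, filters, DESeq2, a replicate block and leaving out each library.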

Additional observations from a re-analysis of the deposited data

How the results depend on the processing

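All 63 called log2 changes of named members kept their sign in 1008 refits, and 36 of these refits lost the call. RLE factors, TMM factors from the members alone, DESeq2, no filter and a filter of 10 reads each kept the 6 counts of members called within 1.5 times. Scaling to the table total moved the median of all tested circRNAs to log2 0.17 for cattle-yak against cattle and 0.13 against yak, from 0.01 and 0.02.

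Leaving out 1 library at a time gave 82 to 135 members higher and 143 to 195 lower for cattle-yak against cattle, and 77 to 140 higher and 147 to 222 lower against yak. For yak against cattle it gave 17 to 47 higher and 21 to 47 lower. The rule itself took 1554 to 1666 members without 1 library, 680 at a minimum of 5 reads in every library and 313 at 10 reads.

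Animals with the same replicate number showed no shared deviation (correlations of −0.044 to 0.0322 over members, beside −0.0609 to 0.0536 for different numbers). Most members have few reads, so this does not settle whether the numbers pair animals, which the labels do not say. With a replicate block, 90 members were higher in cattle-yak against cattle, and 29 were higher and 29 lower in yak against cattle. The block also ended the calls of novel_circ_0020265 between yak and cattle and of novel_circ_0006989 against both parents.

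Host mRNA comparisons planned for each circRNA were not run. Of the tested members under 10 mean reads, 6.95% were called between cattle-yak and each parent. The share over all circRNAs at that depth was not counted. How many differences such depth would miss was not tested.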

Other observations

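Several of the most abundant circRNAs outside the set had many reads in some animals and were listed at 0 in others of the same group. novel_circ_0000135 had 0, 0 and 1569 reads in cattle-yak, 170, 441 and 268 in yak, and 0, 268 and 0 in cattle. novel_circ_0031233, the most abundant circRNA outside the set, had 585, 1323 and 1229 reads in cattle-yak, 0, 239 and 0 in yak, and 326, 0 and 401 in cattle. novel_circ_0026559 had 0 reads in every cattle-yak library, 119, 0 and 0 in yak, and 296, 184 and 426 in cattle. All 3 were chosen after their values were seen, and the cause was not tested.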
